A study of Mus musculus with 6 samples.

Results

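DNA methylation and methylation of histone H3 at lysine 9 (H3K9) were followed here through the transcripts of 36 mouse genes that write, copy, read or remove these marks, in embryonic stem cells with Tip5 knocked down and in control cells. The genes were chosen by name, and every array probe annotated to them was taken. Of the 36 genes, 31 were matched to probes, 65 out of 25697 in all. A probe was tested where its detection p-value was below 0.05 on 3 or more arrays. This p-value is the chance that background alone gives a signal at least as high. The filter left 41 probes of 25 member genes, among 13064 probes and 9015 genes tested in the whole table. Of the other members, 6 genes had no tested probe and 5 were not analysed here.

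Both groups were E14, an embryonic stem cell line of the mouse, grown on gelatin in serum with LIF. The knockdown group had received shRNA against Tip5, given as a mix of constructs with different selection markers, and the control group, labelled wild type, a non-specific shRNA, both from the pSuper vector and by electroporation. Antibiotic selection followed after 72 hours and lasted 6 days, and total RNA was taken at passage 3. Each group holds 3 arrays, replicates 1, 2 and 3, from separate transfections per the series' design text, and the line itself is a single one.

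Tip5 is the product of Baz2a and part of the nucleolar remodelling complex, which is known to bring DNA methyltransferases and histone-modifying enzymes to silent ribosomal RNA genes. In general, Dnmt3a and Dnmt3b lay down DNA methylation with their partner Dnmt3l, Dnmt1 copies it at replication with Uhrf1, and TET enzymes with Tdg remove it. H3K9 methylation is laid down by enzymes such as Setdb1, Ehmt1 and Ehmt2, bound by the HP1 proteins (the Cbx members here), and erased by demethylases of the Kdm3 and Kdm4 families. Embryonic stem cells in serum are known for high levels of Dnmt3b and Dnmt3l.

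Values below are normalized log2 levels, on which a difference of 1 is a doubling, and differences are knockdown minus control. Levels of different probes are not comparable with each other. The arrays measured RNA, and in bulk RNA fewer cells expressing a gene and less RNA per cell cannot be told apart. Baz2a read 5.21, 4.74 and 5.13 in knockdown replicates 1, 2 and 3, against 6.42, 7.51 and 5.99 in controls, 32.6% of the control level on average, with an exact permutation p of 0.1 (two-sided), the smallest that 3 against 3 arrays allow. In limma its difference of -1.62 had an adjusted p of 0.203, and 0.0810 with the replicate number as a block. Uncorrected background made it -0.57, and a larger offset of 50 made it -1.03. All 6 embryonic stem cell markers were tested, with summed linear levels of 35168 to 37083 in the knockdown and 33316 to 38341 in controls.

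Replicate 3 stood apart in both groups, with a mean raw signal of 1092 in the knockdown and 876 in the control, where the other arrays had 510 and 529 in the knockdown and 486 and 544 in controls. The summed level of 7 endoderm markers was 12172 in knockdown replicate 3 and 2201 and 1902 in knockdown replicates 1 and 2, against 3420 to 4254 in controls. Of these markers 3 passed the detection filter. Single stem cell markers also shifted on replicate 3, which their sums do not show. The replicate 3 arrays minus the others gave -0.98 for Sox2, -0.35 for Esrrb and -0.16 for Pou5f1. The same shift was 0.99 for Nanog, 0.76 for Klf4 and 0.67 for Zfp42. The 4 neural markers summed to 287.6 to 401.0 in the knockdown and 166.4 to 249.6 in controls. Nes was the one tested among them, at a difference of 0.90, while Pax6 and Sox1 were above background on no array. The 6 fibroblast markers summed to 738 to 1393 in the knockdown and 787 to 1168 in controls, with Col3a1 and Lum above background on no array. Among them Thy1 read 6.86, 7.40 and 7.30 in the knockdown, against 8.65, 7.97 and 7.85 in controls, a difference of -0.97 with groups that did not overlap (limma adjusted p = 0.255, and 0.118 with the block). Vim, the other fibroblast marker tested, went the other way, at 0.31 with overlapping groups (limma adjusted p = 0.890, and 0.268 with the block). Of the mesoderm markers, Eomes and Mixl1 were above background on no array. The part of these markers in the differences below was not tested.

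Most tested genes of the DNA methylation and H3K9 machinery had estimated differences of at most 0.5 in size between knockdown and control cells. So did most genes of the whole table. For some members larger differences are not excluded, with 95% intervals of -0.55 to 0.87 for Dnmt1 and -1.04 to 0.80 for Smchd1. That of Trim28 was narrower, at -0.29 to 0.46. Of the 25 tested genes, 17 had a positive and 8 a negative difference, the median was 0.089, and the range ran from -0.59 for Dnmt3l to 0.90 for Mbd1. Over all 9015 genes the median was 0.022, with 4760 positive and 4255 negative. The median size regardless of sign was 0.15 in the 25 genes and 0.21 over all genes, and a difference over 0.5 in size was seen in 4 of 25, or 16%, against 15.8% of all genes. No member gene passed an adjusted p of 0.05 in limma, against 0.0776% of all genes, and none of the 41 member probes, against 0.0689% of all probes. With an unadjusted limma p-value below 0.05 there were 3 members, Mbd1, Sirt1 and Dnmt3l, a range that held 11.2% of all genes.

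With the replicate number as a block, 1 member was called, Mbd1, as higher. In that fit 0.732% of all genes were called higher and 1.22% lower, and 1.71% of all probes were called. Same-numbered arrays of the groups deviated together, with correlations of 0.44, 0.52 and 0.71, but knockdown replicate 2 with control replicate 1 (0.46) and knockdown replicate 1 with control replicate 2 (0.37) did so nearly as much, and replicate 3 was the number clearly apart. Counts and sizes of the members were thus near those of the whole table, and what follows describes single genes.

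**Figure D1:**
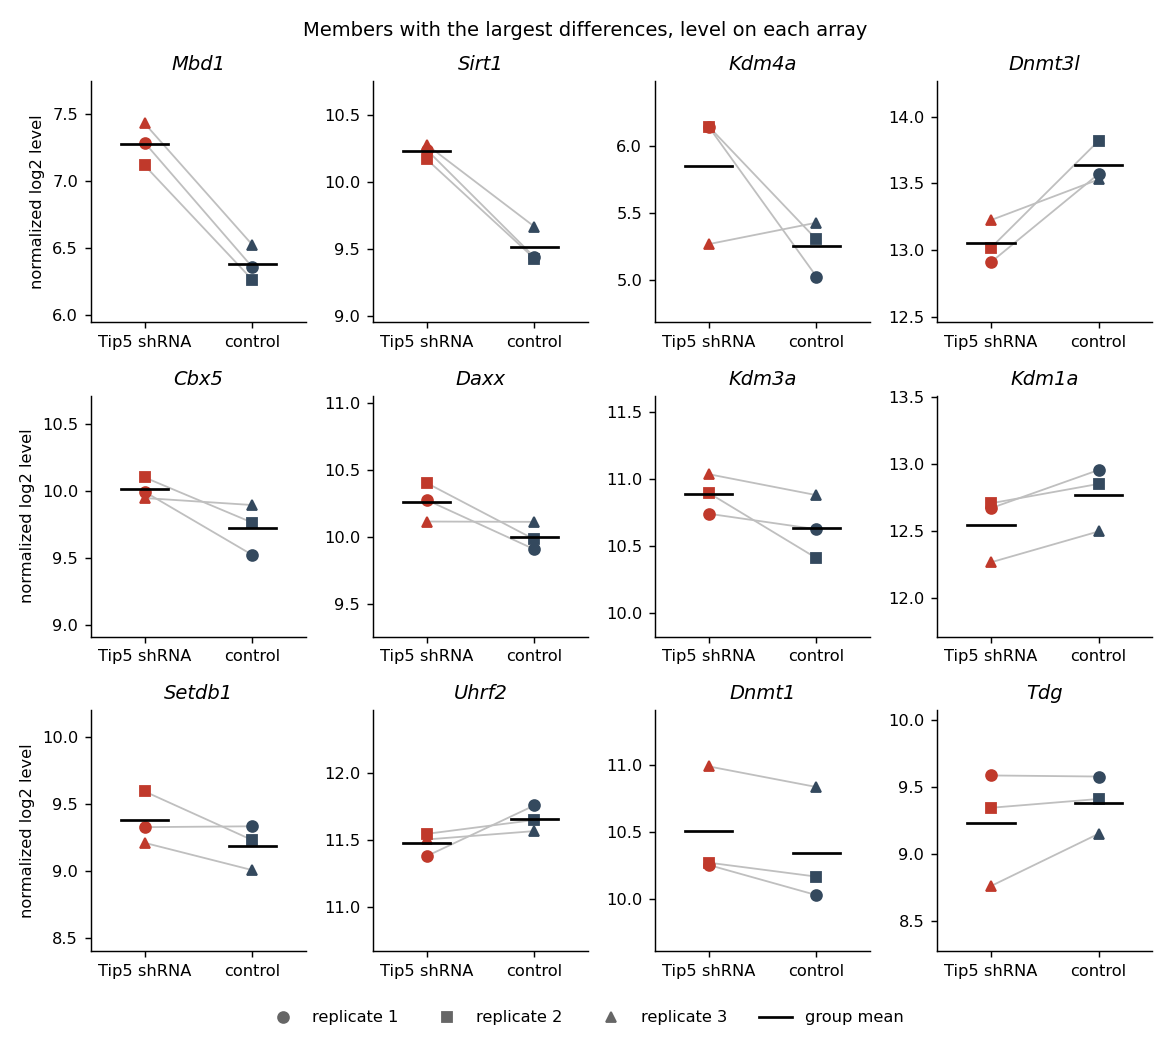
Normalized log2 level (y axis, each panel spanning 1.8 units) of the 12 member genes with the largest differences, in the 3 Tip5 shRNA arrays (left, red) and the 3 control arrays (right, dark). Marker shapes give the replicate number, grey lines join the same number and black bars are group means. Mbd1 and Sirt1 are higher in all 3 knockdown arrays than in any control, Dnmt3l is lower, and Dnmt1 and Tdg separate by replicate 3.

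Mbd1 encodes a methyl-CpG-binding protein that represses transcription and is known to associate with Setdb1. Its brighter probe read 7.29, 7.12 and 7.43 in knockdown replicates 1, 2 and 3, against 6.36, 6.27 and 6.53 in controls. All knockdown arrays lay above all controls, and the difference was nearly the same in each replicate number, at 0.93, 0.85 and 0.91. Mbd1 averaged 7.28 ± 0.16 in the knockdown and 6.38 ± 0.13 in controls (SD, n = 3 each), a 1.86-fold difference of 0.90 (SE 0.18, 95% interval 0.48 to 1.32). The adjusted p was 0.141 in limma, and 0.0397 with the replicate block, where Mbd1 rose.

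The other tested probe of Mbd1 did not show this. It read 5.48, 5.17 and 4.51 in the knockdown, against 4.88, 5.30 and 4.59 in controls, so the groups overlapped, with a difference of 0.13. It exceeded background on 2 knockdown arrays and 1 control, and each of 3 further Mbd1 probes on at most 1 array. With the mean of both tested probes the difference was 0.51 and the blocked adjusted p 0.118, so the call rests on the brighter probe. With the authors' processed values the blocked adjusted p was 0.0622. The brighter probe's difference was 0.44 from uncorrected signals and 0.69 at offset 50.

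Mbd3, a subunit of the NuRD deacetylase complex, read 9.63, 9.79 and 9.55 in the knockdown and 9.38, 9.55 and 9.71 in controls. The groups overlapped, and the difference was 0.11 (95% interval -0.31 to 0.53). Mbd2, which binds methylated CpG and also joins NuRD, was above background on no array.

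Dnmt3l, the catalytically inactive partner that stimulates Dnmt3a and Dnmt3b and is needed for imprints in germ cells, was the member with the lowest difference. Its brighter probe read 12.91, 13.02 and 13.23 in the knockdown and 13.57, 13.82 and 13.53 in controls. Its other probe read 12.90, 13.05 and 13.09 in the knockdown, against 13.64, 13.88 and 13.29 in controls. On both probes every knockdown array lay below every control.

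For the brighter probe, Dnmt3l averaged 13.05 ± 0.16 in the knockdown and 13.64 ± 0.16 in controls (SD, n = 3 each), a difference of -0.59 (SE 0.18, 95% interval -1.02 to -0.16) or 0.665 times the control level. The other probe gave -0.60. The difference did not pass (limma adjusted p = 0.308, and 0.104 with the replicate block). By replicate number it was -0.66, -0.80 and -0.30.

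The annotated starts of Dnmt3l are shown because its richest start has fewer CpG than that of any other tested member with a window. RefSeq windows (GRCm38.p6) from 250 bases before to 50 after a start were matched by symbol for 32 of the 36 genes, 23 of them tested. CpG dinucleotides, the substrate of the DNA methyltransferases, are in capitals and read 5′ to 3′ on the gene's strand. A CpG reads the same on both strands, and none overlaps another.
Dnmt3l chr10:78042037-78042336 plus strand: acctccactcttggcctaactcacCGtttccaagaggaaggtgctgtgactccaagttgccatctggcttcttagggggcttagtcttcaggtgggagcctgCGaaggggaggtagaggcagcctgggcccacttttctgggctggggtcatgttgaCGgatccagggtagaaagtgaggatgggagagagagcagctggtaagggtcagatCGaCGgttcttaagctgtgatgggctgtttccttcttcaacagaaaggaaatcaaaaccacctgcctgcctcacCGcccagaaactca
Dnmt3l chr10:78049592-78049891 plus strand: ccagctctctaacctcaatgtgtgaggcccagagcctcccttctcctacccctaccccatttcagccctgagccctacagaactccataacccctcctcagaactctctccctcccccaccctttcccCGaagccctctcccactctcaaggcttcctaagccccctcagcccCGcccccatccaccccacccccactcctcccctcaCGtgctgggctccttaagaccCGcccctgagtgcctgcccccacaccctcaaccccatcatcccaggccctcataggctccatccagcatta
Dnmt3l chr10:78055085-78055384 plus strand: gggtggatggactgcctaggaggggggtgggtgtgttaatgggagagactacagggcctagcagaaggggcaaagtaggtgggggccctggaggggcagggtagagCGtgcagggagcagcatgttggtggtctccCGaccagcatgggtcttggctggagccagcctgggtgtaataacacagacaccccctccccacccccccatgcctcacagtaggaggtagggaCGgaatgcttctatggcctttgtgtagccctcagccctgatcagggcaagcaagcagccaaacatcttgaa
The 3 windows hold 6, 4 and 3 CpG. Over all 32851 windows the median was 7, and 56.4%, 68.6% and 76.7% held at least as many. The other 22 tested members had 11 or more CpG at their richest start, though single starts of Kdm4c (0), Kdm3a (0) and Dnmt1 (2) held fewer than any of Dnmt3l, and the median richest start over the 23 was 28, against 15 over 17492 protein-coding genes. Of those genes, 33.7% had a richest start with no more CpG than Dnmt3l's. Unlike the 23 members, those protein-coding genes were not filtered by detection on these arrays. These counts describe the sequence only.

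**Figure D2:**
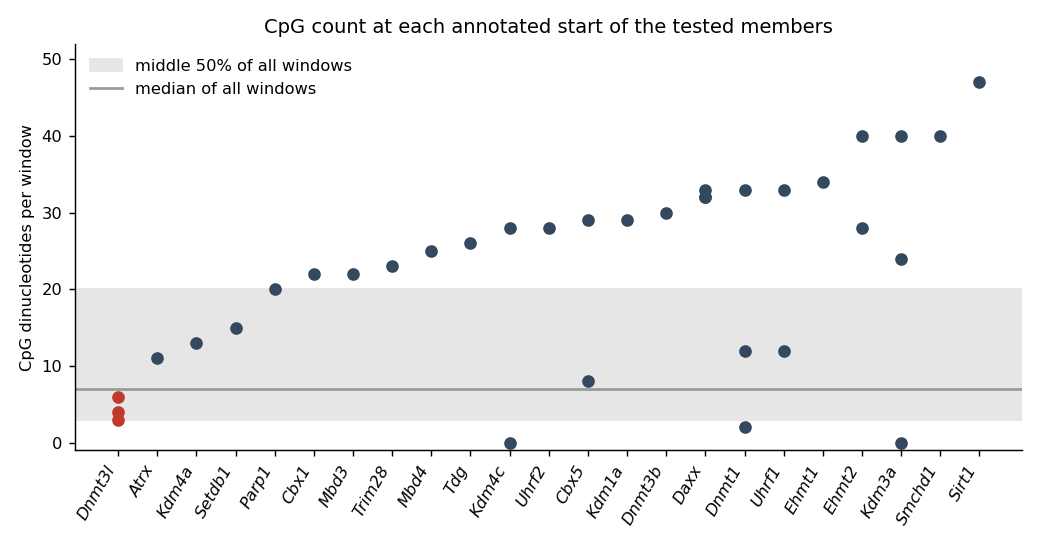
CpG dinucleotides (y axis) in the 300-base window at each annotated start of the 23 tested members with a window, ordered by their richest start. Points are starts, with Dnmt3l in red at 6, 4 and 3, the grey band is the middle 50% of all 32851 windows (3 to 20), and the line is their median of 7.

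The de novo enzyme Dnmt3b read 13.25, 12.88 and 12.74 in the knockdown, against 12.89, 12.66 and 12.87 in controls. The groups overlapped, and the difference was 0.15 (95% interval -0.32 to 0.62), with a dimmer probe at 0.34. The maintenance enzyme Dnmt1 read 10.25, 10.27 and 10.99 in the knockdown, against 10.03, 10.17 and 10.84 in controls. Here replicate 3 was the higher array in each group, and the groups overlapped. The difference was 0.16 (95% interval -0.55 to 0.87).

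Uhrf1, which recognises hemimethylated DNA after replication and recruits Dnmt1, read 12.48, 12.51 and 12.36 in the knockdown and 12.47, 12.48 and 12.15 in controls. Its difference was 0.082 (95% interval -0.34 to 0.50), while its dimmer probe, near background, gave -0.31. Uhrf2, its paralog, read 11.38, 11.54 and 11.50 in the knockdown, against 11.75, 11.65 and 11.56 in controls. For Uhrf2 the groups did not overlap, by less than the SD within either group, and the difference of -0.18 did not pass (limma adjusted p = 0.830, and 0.492 with the block). Its 3 other probes gave -0.23, -0.080 and -0.29, with overlapping groups. The adjusted p of Dnmt1, Dnmt3b and Uhrf1 lay between 0.902 and 0.948. Neither Dnmt3a, the other de novo methyltransferase, nor Hells, a remodeller needed for DNA methylation at repeats, was above background on any array. Each had 2 probes, and probes without signal do not show that a gene is not expressed.

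On the demethylation side, Tdg, the glycosylase that excises the oxidised cytosines made by TET enzymes, read 9.59, 9.35 and 8.76 in the knockdown, against 9.58, 9.41 and 9.15 in controls. The groups overlapped, and both replicate 3 arrays were the low ones. The difference was -0.15 (adjusted p = 0.930). Mbd4, a glycosylase that binds methylated CpG, read 8.03, 8.06 and 7.70 in the knockdown and 8.04, 8.09 and 7.39 in controls, with a difference of 0.089. Tet3 was above background on no array. The 5 genes not analysed here are Tet1, Tet2, Suv39h1, Kdm3b and Zfp57.

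The 4 tested H3K9 methyltransferases and cofactors had differences of at most 0.19 in size on their brightest probes. Setdb1, which Trim28 brings to retroviral elements, read 9.33, 9.59 and 9.21 in the knockdown, against 9.33, 9.23 and 9.01 in controls. Trim28 (KAP1) read 13.78, 13.91 and 13.86 in the knockdown, against 13.74, 13.81 and 13.75 in controls. Both pairs of groups overlapped. The difference of Setdb1 was 0.19 (95% interval -0.26 to 0.64), and that of Trim28 0.085 (95% interval -0.29 to 0.46).

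Ehmt1 (GLP) and Ehmt2 (G9a) together lay down mono- and dimethylation of H3K9. Ehmt1 read 10.66, 10.37 and 10.25 in the knockdown, against 10.30, 10.42 and 10.30 in controls, a difference of 0.086, with its other probes at -0.36 and -0.083. Ehmt2 read 9.77, 10.30 and 9.78 in the knockdown, against 9.94, 10.24 and 9.88 in controls, a difference of -0.068, with its other probe at 0.026. The groups overlapped on each of these probes, and the sign changed between probes of the same gene. Setdb1, Trim28, Ehmt1 and Ehmt2 had adjusted p from 0.863 to 0.967. Suv39h2, of the enzymes that trimethylate H3K9 at pericentric repeats, was above background on 1 knockdown and 1 control array and was not tested.

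Of the HP1 proteins, which bind methylated H3K9, Cbx5 (HP1 alpha) read 9.99, 10.10 and 9.95 in the knockdown, against 9.52, 9.76 and 9.89 in controls. The groups did not overlap, though knockdown and control replicate 3 were 0.052 apart. The difference was 0.29 (SE 0.18, 95% interval -0.13 to 0.71) and did not pass (limma adjusted p = 0.690). Cbx1 (HP1 beta) read 5.59, 6.09 and 6.12 in the knockdown, against 6.13, 6.07 and 5.61 in controls, a difference of -0.00090. Cbx3 (HP1 gamma) was above background on 1 knockdown and 0 control arrays and was not tested.

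Among the demethylases, Kdm4a, which acts on H3K9 and H3K36, read 6.14, 6.14 and 5.27 in the knockdown, against 5.02, 5.30 and 5.43 in controls. Replicates 1 and 2 were higher in the knockdown by 1.12 and 0.84, and replicate 3 was lower by 0.16, so the groups overlapped. The difference of 0.60 (SE 0.28) did not pass (limma adjusted p = 0.530, and 0.245 with the block), and it was 0.18 from uncorrected signals and 0.36 at offset 50. Of the controls, 2 arrays had this probe above background, and the second probe of Kdm4a was above it on no array. Knockdown replicate 3, where Kdm4a read within the range of the controls, is also the array with the high endoderm sum. A link between them was not tested.

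Kdm3a, which removes mono- and dimethylation of H3K9, had a positive difference on each of its 3 probes, at 0.25, 0.47 and 0.29 in order of brightness. The brightest read 10.74, 10.90 and 11.04 in the knockdown, against 10.63, 10.41 and 10.88 in controls, and the groups overlapped. The second read 10.46, 10.29 and 10.20 in the knockdown, against 9.68, 9.99 and 9.87 in controls, and there, as on the third, they did not. No probe passed (limma adjusted p between 0.410 and 0.782). Kdm1a (LSD1), which removes H3K4 and in some settings H3K9 methylation, read 12.67, 12.70 and 12.26 in the knockdown, against 12.95, 12.85 and 12.49 in controls. By replicate number the differences were -0.29, -0.14 and -0.23, yet the groups overlapped, with replicate 3 the lowest array in each. The difference was -0.22 (SE 0.22, adjusted p = 0.847, and 0.372 with the block). Kdm4b (0.13, other probe 0.036) and Kdm4c (0.091) had overlapping groups.

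**Figure D3:**
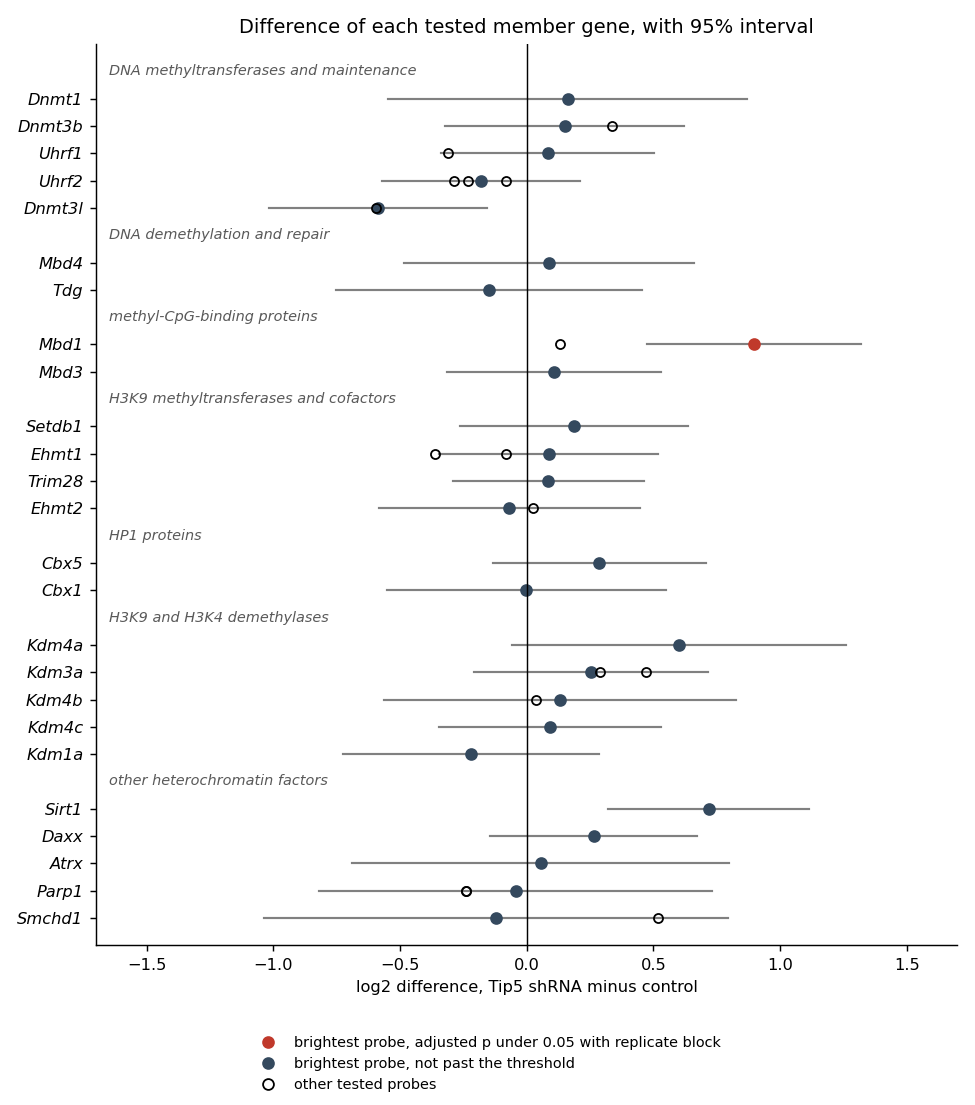
Log2 difference, Tip5 shRNA minus control (x axis), of the 25 tested member genes grouped by role. Filled points are each gene's brightest tested probe with its 95% interval from the limma fit without the block, open circles are its other tested probes, and red marks an adjusted p under 0.05 with the replicate block. Intervals of Mbd1 and Sirt1 lie above 0 and that of Dnmt3l below it before adjustment, and the open circle of Mbd1 lies at 0.13.

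Sirt1, an NAD-dependent deacetylase that acts on histones and on Suv39h1 among other proteins, had the second largest positive difference. It read 10.24, 10.17 and 10.28 in the knockdown, against 9.44, 9.43 and 9.67 in controls. All knockdown arrays lay above all controls, and within a group the arrays were close. Sirt1 averaged 10.23 ± 0.056 in the knockdown and 9.51 ± 0.13 in controls (SD, n = 3 each), a 1.65-fold difference of 0.72 (SE 0.17, 95% interval 0.32 to 1.11). The adjusted p was 0.199 in limma and 0.0579 with the block, so the gene did not pass in either fit. By replicate number the difference was 0.80, 0.74 and 0.61. The gene had 1 probe.

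Mbd1 had the largest positive difference but no matched window. The starts of Sirt1 and Kdm4a, the next largest, are shown in the same format as Dnmt3l.
Sirt1 chr10:63338986-63339285 minus strand: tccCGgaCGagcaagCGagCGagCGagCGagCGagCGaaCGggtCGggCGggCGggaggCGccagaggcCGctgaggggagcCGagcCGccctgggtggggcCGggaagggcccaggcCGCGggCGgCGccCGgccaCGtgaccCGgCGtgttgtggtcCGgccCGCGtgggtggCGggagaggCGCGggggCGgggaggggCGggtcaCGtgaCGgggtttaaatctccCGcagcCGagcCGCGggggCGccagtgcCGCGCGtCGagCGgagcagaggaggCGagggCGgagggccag
Kdm4a chr4:118179994-118180293 minus strand: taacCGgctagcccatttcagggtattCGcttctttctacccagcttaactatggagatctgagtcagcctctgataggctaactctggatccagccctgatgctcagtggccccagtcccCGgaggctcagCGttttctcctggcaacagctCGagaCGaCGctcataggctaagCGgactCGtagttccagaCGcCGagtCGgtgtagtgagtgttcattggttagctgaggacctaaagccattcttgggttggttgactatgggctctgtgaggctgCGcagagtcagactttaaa
Sirt1's window holds 47 CpG, a count that 1.44% of all windows reach, and the window of Kdm4a holds 13, reached by 37.9%. Apart from Dnmt3l, the tested members with negative differences held 20 to 40 CpG at their richest start. A link between CpG count and direction was not tested.

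Daxx, the histone H3.3 chaperone that works with Atrx at silent repeats, read 10.28, 10.41 and 10.12 in the knockdown, against 9.91, 9.98 and 10.12 in controls. The replicate 3 arrays differed by 0.0023, the margin by which the groups did not overlap. The difference was 0.26 (SE 0.17, adjusted p = 0.714). Atrx read 6.60, 6.40 and 5.69 in the knockdown, against 6.13, 6.62 and 5.77 in controls, with overlapping groups and a difference of 0.055.

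Smchd1, which helps silence the inactive X chromosome and imprinted clusters, read 9.66, 9.64 and 8.45 in the knockdown, against 9.59, 9.70 and 8.83 in controls. Its difference was -0.12, while its dimmer probe gave 0.52, and both had overlapping groups. Parp1, a DNA damage sensor that also binds Tip5 at silent ribosomal RNA genes, read 13.75, 13.77 and 12.80 in the knockdown, against 13.65, 13.77 and 13.03 in controls. Its probes gave -0.043, -0.24 and -0.24, with overlapping groups on each. On the brightest probe of both genes the replicate 3 arrays were the low ones in each group.

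Taking the 25 genes by whether the groups overlapped, 4 were higher on all knockdown arrays (Mbd1, Sirt1, Cbx5 and Daxx), where 8.96% of all genes were, and 2 were lower on all (Dnmt3l and Uhrf2), where 8% were. Of the 41 probes, 6 were higher on all knockdown arrays, where 8.34% of all probes were, and 3 were lower on all, where 7.73% were. The difference had the same sign in all 3 replicate numbers in 12 of the 25 members, and in 4201 of all 9015 genes.

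Replicate 3 separated from the other arrays in many of these genes. In 10 of the 25 genes both replicate 3 arrays lay below the other 4, and in 1 gene, Dnmt1, above them. Over all genes these shares were 25.2% and 21.7%. The mean of the replicate 3 arrays minus that of the others was -1.01 for Smchd1, -0.82 for Parp1, -0.71 for Atrx, -0.67 for Kdm4b and 0.73 for Dnmt1. Its median size was 0.23 in the members and 0.36 over all genes, and it was larger than the difference between groups in 15 of the 25 members, or 60%, and in 65.7% of all genes. Mbd1 (0.22), Sirt1 (0.15) and Dnmt3l (0.048) had replicate 3 shifts smaller than their group differences. They are named here for large group differences, which favours that order, so it is no separate support for them.

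**Figure D4:**
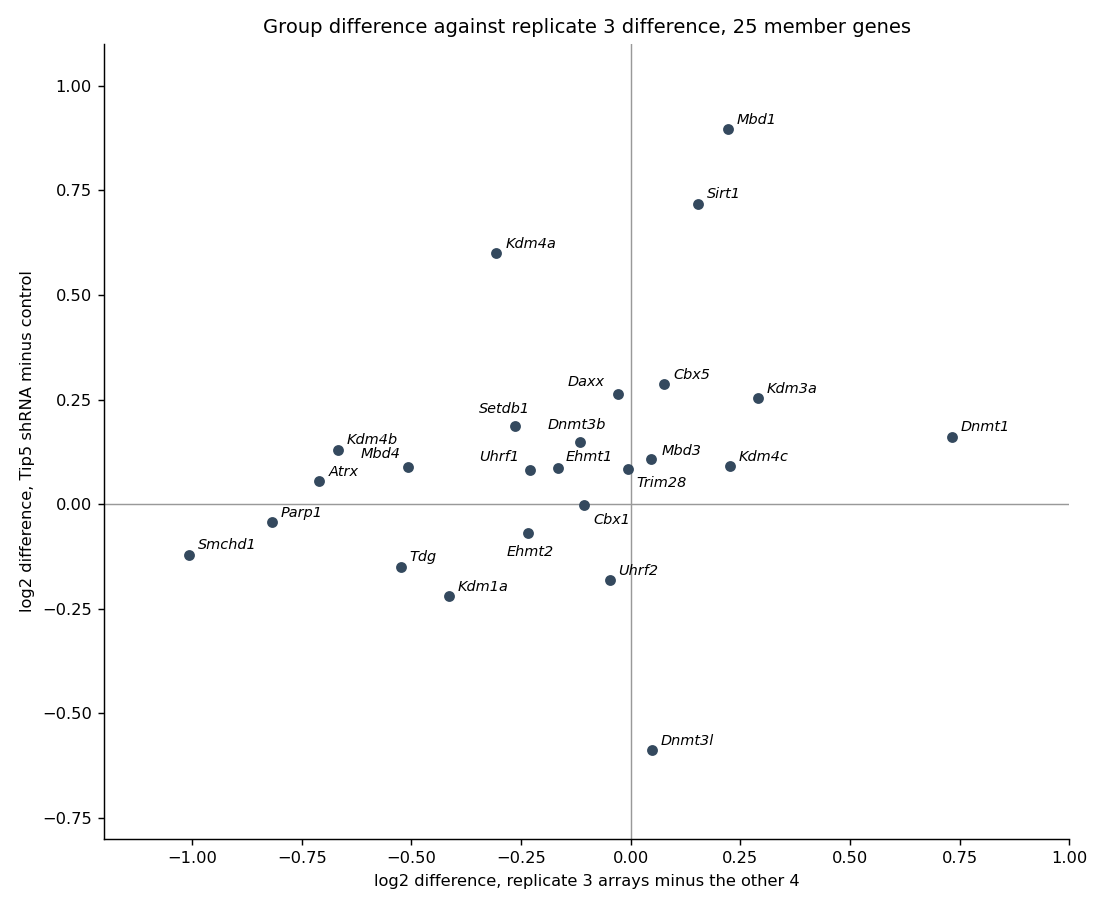
Log2 difference between groups (y axis, Tip5 shRNA minus control) against the difference of both replicate 3 arrays from the other 4 (x axis), one point per tested member gene. Mbd1, Sirt1 and Kdm4a stand high and Dnmt3l low on the y axis, while Smchd1, Parp1 and Dnmt1 lie farthest out on the x axis.

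Without both replicate 3 arrays, 4 members passed, Mbd1 (0.82, adjusted p = 0.0250), Sirt1 (0.81, adjusted p = 0.0225), Kdm4a (0.79, adjusted p = 0.0280) and Dnmt3l (-0.76, adjusted p = 0.0398), from 2 arrays a group in limma. In that fit 8.44% of all genes tested were called, and 14.5% with the block, which called the same 4 members. Array weights, which give less weight to arrays far from the fit, also called these 4, where 9.96% of all genes were called. Without both arrays of replicate 1 or of replicate 2, no member was called with or without the block. Those fits called 0% of all genes, except for 0.177% without replicate 1 with the block, so they say nothing particular to the members. Joined to the block, other settings called 3 members with uncorrected signals (Mbd1, Sirt1 and Dnmt3l, where 9.37% of all genes were called). The same 3 were called with offset 50 (7.73%), Mbd1 and Sirt1 with median scaling (3.88%), and none with the mean of a gene's probes (1.58%). In that last fit 4 members had an unadjusted limma p-value below 0.05, as had 2090 of all 9015 genes.

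**Figure D5:**
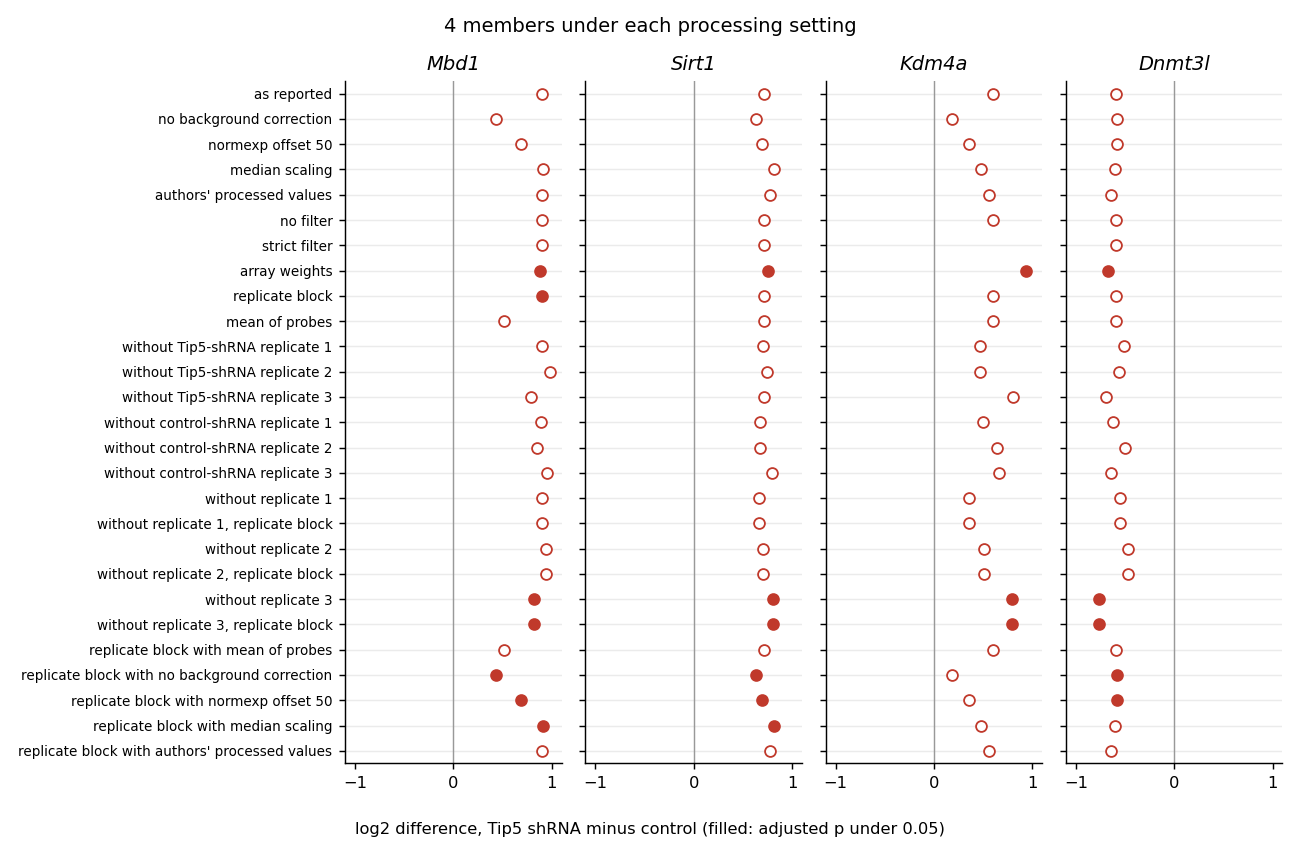
Log2 difference, Tip5 shRNA minus control (x axis), of Mbd1, Sirt1, Kdm4a and Dnmt3l under each processing setting (rows), with filled points for an adjusted p under 0.05. The sign is the same in every row that tested the gene, the size of Mbd1 and Kdm4a is smaller with no background correction, and the settings without both replicate 3 arrays call all 4.

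Other genes of these pathways, 64 in 7 lists, were read the same way. Of these 46 were tested, 29 with a positive and 17 with a negative difference, a median of 0.079. None passed without the block (6 had an unadjusted limma p-value below 0.05, as had 11.2% of all genes). With the block 1 passed as lower, as did 1.22% of all genes. That gene, Cdyl2, a chromodomain protein, read 7.77, 8.04 and 7.84 in the knockdown, against 9.18, 9.44 and 8.89 in controls. The groups were well apart, with a difference of -1.29 (SE 0.20, adjusted p = 0.0943, and 0.0268 with the block), larger than that of any member.

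The 4 next largest differences were positive. Kmt5b, an H4K20 methyltransferase, read 9.18, 8.98 and 8.82 in the knockdown, against 8.18, 7.95 and 8.27 in controls (0.86, adjusted p = 0.172, and 0.0579 with the block). Gadd45a, a stress-induced gene linked to DNA demethylation, had a difference of 0.79, Wiz, a partner of Ehmt1 and Ehmt2, of 0.62, and Phf2, an H3K9 demethylase, of 0.62. Their adjusted p lay between 0.294 and 0.407, and between 0.0740 and 0.104 with the block. The lists had medians of 0.401 for methyl-CpG and ZBTB readers (1 gene tested), -0.0047 for partners of maintenance methylation and Hells (6), 0.079 for base excision and deamination (10), 0.082 for Setdb1 partners and the HUSH complex (5), 0.033 for Ehmt1 and Ehmt2 partners (5), 0.11 for further H3K9 demethylases (3) and 0.090 for H4K20 and other heterochromatin factors (16).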

How the data were processed

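Expression was measured on 6 Illumina mouse bead arrays, 3 per group. The deposited table gives, per the file headers, each probe's signal intensity and its detection p-value on each array. The submitters' processing notes list GenomeStudio 2011.1 and give it no role. A further deposited table holds processed intensity values. Above a floor of 1 these follow a straight line of the same array's signal, with column medians of 14.6, 15.7 and 19.2 in the knockdown and 16.2, 16.4 and 16.6 in controls. They are linear and not centred on probes, and were used as an alternative. Mean signal was 510 to 1092 in the knockdown and 486 to 876 in controls, and 12473 to 13450 probes per array had a detection p-value under 0.05. The number of arrays limits the precision.

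From the signals, limma 3.58.1 (R 4.3.3) took background from the detection p-values by normexp with offset 16, and the corrected values were quantile normalized and put on the log2 scale. Probes with detection p-value under 0.05 on at least 3 arrays were compared with lmFit and eBayes (4 residual and 3.297 prior degrees of freedom). Benjamini-Hochberg adjustment ran over 13064 probes with a threshold of 0.05. Adjusted p-values come from this test. Each SE is moderated, and each SD covers a group's 3 arrays. The pipeline was run on simulated data with independent noise on each array and added differences larger than any member's. The shared shift of replicate 3 was not simulated. A gene stands by its brightest tested probe. Probe symbols were updated by Entrez identifier with the GRCm38.p6 gene table (23962 probes matched), 1 by symbol and 8 by accession, and 1719 probes had no symbol in the annotation, 23978 had 1 and 0 had several.

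Replicate numbers come from the sample titles. Same-numbered arrays deviated together (correlation of deviations from group means over probes 0.44, 0.52 and 0.71 for numbers 1, 2 and 3). Across numbers it was 0.37 and 0.46 between 1 and 2, and -0.62 to -0.52 between 3 and the others, so mainly replicate 3 is told apart. As each same-number correlation was above 0.1, the number was taken as a pairing and the block given beside results it changes. Numbers 1 and 2 would also have passed this rule with their partners swapped, so the rule does not tell them apart. Marker sums are of linear normalized levels of each gene's brightest probe. Members, lists, tests and the naming rule (all members, and of the other genes the called and the next 4 by size) were chosen with earlier results of these data known. Alternatives were the background, the normalization, the filter, array weights, the probe rule, the block and leaving out arrays.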

Additional observations from a re-analysis of the deposited data

How the results depend on the processing

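Without the block, limma called 4 of all probes with no background correction, 28 with offset 50, 4 with median scaling, 3 with the authors' values, 0 with no filter (2120 at an unadjusted p under 0.05) and 1208 with array weights, against 9 as reported, and 223 with the replicate block. Member probes and genes called were 0 and 0 as reported (3 genes at an unadjusted p under 0.05), 1 and 1 with the replicate block, and 5 and 4 with array weights. Joined to the replicate block, settings chosen after seeing the data gave 1102 of all probes, 4 member probes and 3 member genes with no background correction. The counts were 926, 4 and 3 with offset 50, 463, 2 and 2 with median scaling, and 97, 0 and 0 with the authors' values. With the authors' values 4 member genes had an unadjusted limma p under 0.05, as had 2708 of all 13064 probes. The mean of probes with the block called 0 members (4 at an unadjusted limma p under 0.05, against 2090 of all 9015 genes). Baz2a was lower in each setting that tested it, and passed with array weights (-1.81), with the block and offset 50 (-1.03) or median scaling (-1.45), and without replicate 3 (-1.68 with and without the block). Leaving out 1 array, or both arrays of a replicate number with or without the block, gave 0 to 1715 of all probes (22 without replicate 1 with the block, and 954 without replicate 3 without it), 0 to 6 member probes, 0 to 4 member genes and -1.93 to -1.11 for Baz2a.

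Of the 25 members, 14 kept their sign in each alternative that tested them, among them Mbd1, Sirt1, Kdm4a (left out by the strict filter) and Dnmt3l. The other 11 had differences of at most 0.16 in size, and their signs turned. Leaving out arrays gave -0.083 to 0.41 for Dnmt1, -0.027 to 0.14 for Uhrf1, -0.33 to 0.085 for Tdg, -0.13 to 0.21 for Mbd4, -0.052 to 0.18 for Ehmt1, -0.24 to 0.043 for Ehmt2, -0.21 to 0.28 for Cbx1, -0.10 to 0.35 for Kdm4b, -0.16 to 0.31 for Atrx, -0.39 to 0.28 for Smchd1 and -0.27 to 0.29 for Parp1. Without replicate 3, with or without the block, Mbd4 was at -0.021, Smchd1 at 0.0059 and Parp1 at 0.056. In the leave-outs that called 0 of all probes, 344 to 1671 had an unadjusted limma p-value below 0.05. With or without the block, the mean of probes gave -0.12 for Uhrf1, -0.12 for Ehmt1 and 0.20 for Smchd1, median scaling 0.011 for Ehmt2 and 0.088 for Cbx1, and no background correction 0.00012 and the authors' values 0.040 for Cbx1. Array weights, run without the block, gave 0.048 for Parp1. The cause was not tested. Signal near background limits Kdm4a, Atrx, Cbx1 and Baz2a, and 6 members were not measurable. It also limits the second probes of Mbd1, Smchd1, Uhrf1, Kdm4b and Dnmt3b and the third probe of Ehmt1. The brighter Mbd1 probe was above background on every array, yet its difference of 0.90 fell to 0.69 at offset 50 and 0.44 uncorrected.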
